A study of Rattus norvegicus with 30 samples.

Results

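The 10 genes described here encode enzymes of mitochondrial fatty acid oxidation: Cpt1a, Cpt1b, Cpt2, Acadvl, Acadl, Acadm, Acadsb, Hadha, Hadhb and Acaa2. They were taken as every probe set on the array that the platform's annotation gives 1 of these symbols, which found 14 of 8799 probe sets. Of the 14, 13 passed the filter on low signal, and all 10 genes had at least 1 that did. The exception was a further Acadl probe set, rc_AI639522_at, whose signal lay between 2.4 and 68 over all arrays.

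Left ventricular RNA of rats was read on 30 Affymetrix arrays, with 5 biological replicates, per the labels, in each of 6 groups. The groups were control (CTL), ischaemia (ISCH), ischaemic preconditioning (IPC), anaesthetic preconditioning (APC), the trigger of ischaemic preconditioning (IPC_TRI) and the trigger of anaesthetic preconditioning (APC_TRI). In preconditioning a mild stimulus leaves the heart better able to withstand a later damaging ischaemia. The sources used here do not give the strain, age or sex of the rats, the anaesthetic, the length of any step, or what besides the trigger the hearts of the trigger groups received.

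The adult heart draws most of its energy from long-chain fatty acids. A fatty acid joined to coenzyme A cannot cross the inner mitochondrial membrane, so carnitine palmitoyltransferase 1 on the outer membrane moves the acyl chain to carnitine, and carnitine palmitoyltransferase 2 inside moves it back. Each turn of beta-oxidation then takes an acyl-CoA dehydrogenase chosen by chain length, a hydratase and a dehydrogenase step, and a thiolase that releases acetyl-CoA for the citric acid cycle.

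Values below are the deposited array signals, on a linear scale that had been brought to a common mean on each array. Changes are differences of group means of log2(signal + 16) after quantile normalization, each with its standard error (SE, written after ±) over groups of n = 5. They were tested with limma, adjusted over all 5244 probe sets by the Benjamini-Hochberg method, and called at an adjusted p under 0.05. Each gene was read from its brightest probe set, and its other probe sets are given beside it. The number of arrays limits the precision. Bulk tissue was measured, so fewer cells of a type cannot be told apart from less RNA per cell. A probe's signal also depends on its sequence, so levels are compared within a probe set only.

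Of 16 ventricular cardiomyocyte genes 13 were tested, and Myl2 had a mean signal of 44800 and Myh6 of 33200. Of 10 skeletal muscle genes 8 were on the array, with mean signals from 24.3 for Myh2 and 25.7 for Tnni2 to 1000 for Myh1 and 5410 for Acta1, an actin that heart muscle also expresses. Within-group correlations between arrays averaged 0.961 in CTL and 0.884 in IPC_TRI. Array IPC_TRI 5 had the lowest mean correlation with its own group, 0.853, and in ISCH it was ISCH 1, at 0.905. Results that rest on these 2 arrays are given with and without them. Array APC_TRI 3 stood apart on 3 atrial markers, at 2.54 above the CTL mean on the log2 scale. Without it, 2 of the 10 genes were called in APC_TRI minus CTL, Acadm (-0.93) and Acadvl (-0.90), as with it.

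Of the 10 genes 7 had a window of 250 bases before an annotated start site in RefSeq, on assembly GRCr8. Those of Cpt1b, Acadl and Acaa2 were not used here. The start site used is not always an end of the annotated gene. All 250 bases of the Cpt1a and Cpt2 windows lie inside the annotated span of the gene. So do 128 bases for Acadsb, 81 for Acadvl and 57 for Hadhb. Hadha and Hadhb lie head to head on chromosome 6, with start sites at 31907801 and 31907500, which are 301 bases apart, so their windows overlap. The overlap is shown because the array signals of these genes are set against each other below. It is chr6:31907551-31907750, on the plus strand in the direction of Hadha, and capitals mark GGGCGG on either strand, the core of the GC box that binds Sp1. Its first bases, up to 31907557 on this strand, lie inside the annotated span of Hadhb. A further GGGCGG, at -31 from the Hadhb start site, lies in that span outside the bases shown.
Hadha and Hadhb: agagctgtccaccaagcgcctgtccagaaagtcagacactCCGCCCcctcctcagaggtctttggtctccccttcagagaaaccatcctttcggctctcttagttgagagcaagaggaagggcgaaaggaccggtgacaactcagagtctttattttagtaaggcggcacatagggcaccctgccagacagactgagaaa

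The windows before Acadm and Acadvl are shown because these genes fell in both trigger groups. They are chr2:245542865-245543114 and chr10:55236787-55236955, both on the minus strand and written 5′ to 3′, and they hold only bases outside the annotated gene. Capitals mark AGGTCA, the hexamer that nuclear receptors such as PPAR alpha and the oestrogen-related receptors recognise.
Acadm: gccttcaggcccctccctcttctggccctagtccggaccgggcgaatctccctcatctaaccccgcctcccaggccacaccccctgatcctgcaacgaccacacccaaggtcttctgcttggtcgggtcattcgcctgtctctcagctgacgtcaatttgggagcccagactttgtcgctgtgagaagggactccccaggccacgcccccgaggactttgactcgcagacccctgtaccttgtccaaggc
Acadvl: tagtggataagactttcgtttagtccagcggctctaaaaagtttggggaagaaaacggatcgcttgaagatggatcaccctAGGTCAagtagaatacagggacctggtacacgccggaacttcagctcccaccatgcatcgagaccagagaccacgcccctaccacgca

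Over the full 250 bases before the start site, and on both strands, AGGTCA was found in 1 of the 7 genes, Acadvl, which held it at -169, shown above, and at -17, inside the annotated gene. It occurred in 14.1% of 33469 rat promoters. The longer TNAAGGTCA, which contains that hexamer, and the direct repeat of the hexamer with 1 base between (DR1), the classic PPAR site, were in 0 of the 7, against 1.04% and 0.0508% of all promoters. GGGCGG was in 4 of the 7, Cpt2, Acadsb, Hadha and Hadhb, against 30.5%. The matches of Cpt2, and some of those of Acadsb and Hadhb, lie inside the annotated gene. A match describes letters in a window only. TNAAGGTCA and DR1 were searched for as exact letters, and at these rates almost any 7 windows would hold 0. Their absence here does not tell whether the genes have such sites.

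**Figure D1:**
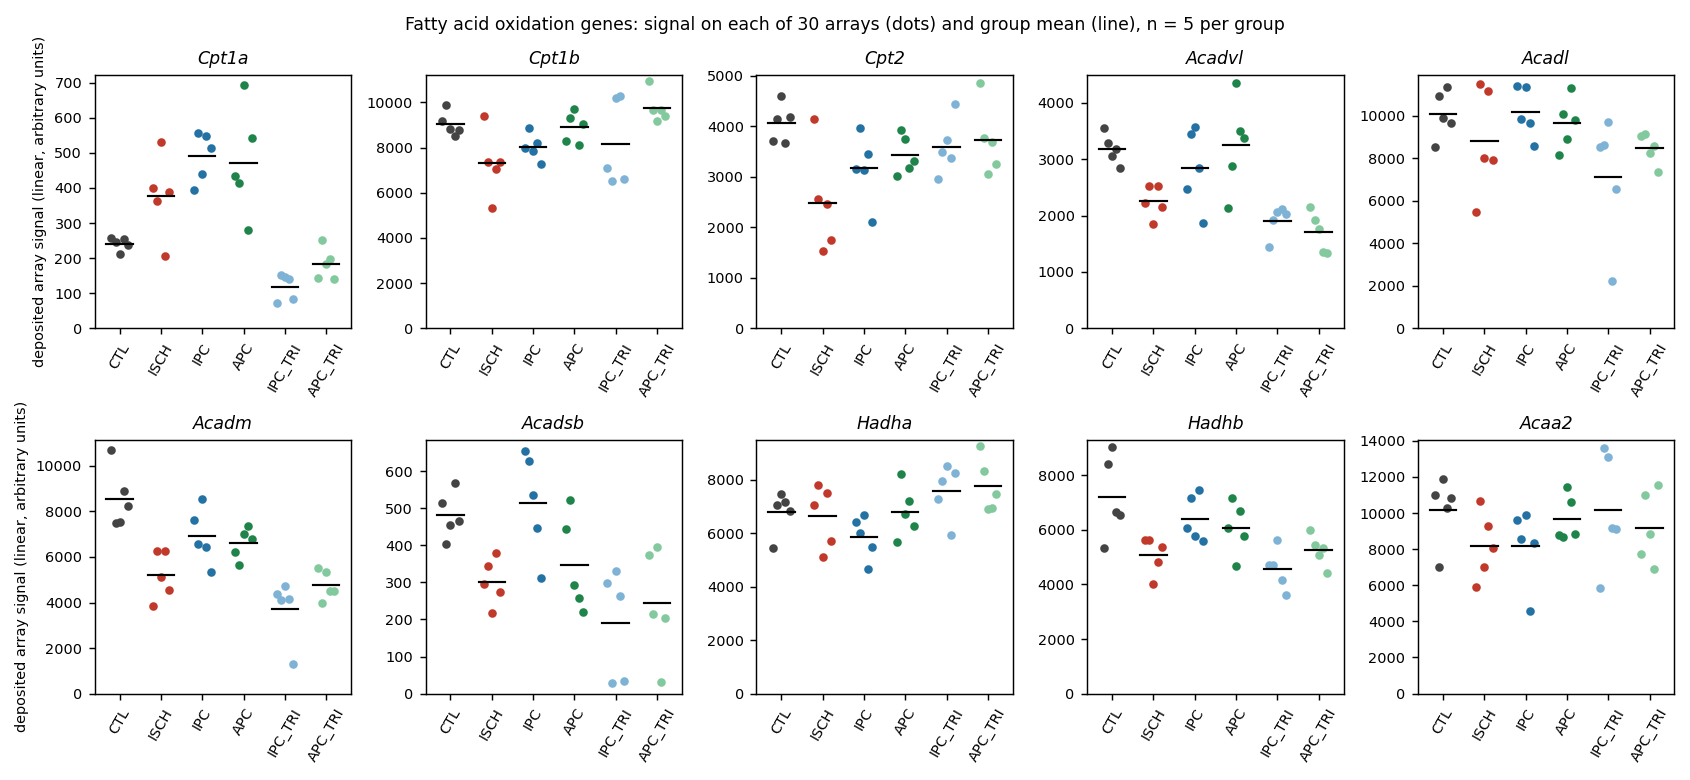
Deposited signal (linear scale, arbitrary units, axes from 0) of the 10 genes on each array. Dots are the 5 arrays of a group and lines their means. Cpt1a was highest in IPC, at a mean of 490.6, and lowest in IPC_TRI, at 118.9, whereas Acadm was highest in CTL.

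Cpt1a encodes the isoform of carnitine palmitoyltransferase 1 that dominates in liver and is a minor form in the adult heart. It was read from probe set L07736_at, and the gene lies at chr1:209993881-210056329. The CTL arrays had signals of 257, 245, 213, 255 and 236. In ISCH they were 400, 364, 532, 206 and 390. Of the 5 ISCH arrays 4 lay above all CTL arrays and 1 below them. The IPC arrays had 394, 558, 441, 548 and 513, and the APC arrays 433, 414, 692, 281 and 542. All 10 IPC and APC arrays lay above every control array.

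The trigger groups stood on the other side. Cpt1a had 71, 151, 147, 141 and 84 in IPC_TRI and 142, 253, 184, 198 and 141 in APC_TRI. All 5 IPC_TRI arrays lay below every CTL array, while 1 APC_TRI array lay within the CTL range. The order of the means was IPC, APC, ISCH, CTL, APC_TRI, IPC_TRI, and no 2 neighbours in it differed past the threshold. Over the 6 groups the F test of any difference gave an adjusted p of 3.9e-07 (limma), the smallest among the 10 genes, in a fit where 30.5% of all 3155 genes passed.

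Between groups, Cpt1a rose in IPC over CTL by 0.96 ± 0.26 (adjusted p = 0.03, limma). It was the 1 gene of 10 called in that comparison, where 3.61% of all genes were called, 1.52% higher and 2.09% lower. Its IPC and CTL arrays did not overlap, as for 6.75% of all genes. The APC difference from CTL was 0.88 ± 0.26 and did not pass (adjusted p = 0.058, limma). Of the 10 genes 0 were called in APC minus CTL (limma), against 3.26% of all genes, 1.08% higher and 2.19% lower. Cpt1a and Acadm, 2 of the 10, had an unadjusted p under 0.05 and no overlap between arrays, against 10.9% of all genes with such a p and 6.97% without overlap. The Cpt1a difference passed with 8 of the 13 other ways of processing, at 0.78 to 0.91, among them a block for the replicate number (adjusted p = 0.046, limma). The IPC call ended when any of CTL 1, 3 or 5 or IPC 2, 4 or 5 was left out (0.91 to 0.97). In ISCH minus CTL the gene had 0.53 ± 0.26 (adjusted p = 0.24, limma).

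Against its own trigger group Cpt1a was 4.5-fold higher in IPC, a rise of 2.17 ± 0.26 (adjusted p = 5.4e-07, limma), and 2.5-fold higher in APC, a rise of 1.32 ± 0.26 (adjusted p = 6e-04, limma). In neither comparison did the arrays of both groups overlap. The 2 rises differed by 0.85 ± 0.37, IPC minus APC, which did not pass as an interaction (adjusted p = 0.54, limma). In the same interaction 0 of the 10 genes and 5 of 5244 probe sets passed; Cpt1a alone of the 10 had an unadjusted p under 0.05, 0.03. Against CTL, Cpt1a fell by 1.21 on the log2 scale in IPC_TRI (SE 0.26, adjusted p = 0.0029, limma) and had -0.44 ± 0.26 in APC_TRI (adjusted p = 0.3, limma).

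Cpt1b encodes the muscle isoform of the same transferase, the main one in heart. Its probe sets were D43623_g_at and D43623_at, which come from 1 transcript record, and the gene lies at chr7:122370974-122380473. The first had CTL signals of 9154, 9871, 8835, 8499 and 8776 and ISCH signals of 9416, 7380, 5328, 7059 and 7348. Of the ISCH arrays 4 lay below all CTL arrays, and the remaining one, ISCH 1, lay among them. The fall in ISCH was 0.42 on the log2 scale (SE 0.13, adjusted p = 0.032, limma), and 0.52 without ISCH 1 and IPC_TRI 5. The call was lost in 6 of 13 other ways of processing. It did not pass without any of CTL 1, 2 or 5 or ISCH 2, 3, 4 or 5, at -0.43 to -0.32, nor with the values as deposited (-0.33). The other probe set fell in ISCH as well, by 0.40 on the log2 scale (SE 0.13, adjusted p = 0.047, limma), and did not pass without CTL 1, 2, 3 or 5 or ISCH 2, 3, 4 or 5, at -0.43 to -0.31.

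In the trigger groups the Cpt1b probe sets parted. D43623_g_at had 7080, 6536, 10178, 10258 and 6616 in IPC_TRI, so 3 arrays lay below and 2 above the CTL range. D43623_at had 5495, 4738, 5371, 5428 and 6651 there, against 3947, 4257, 4331, 3997 and 3615 in IPC, with no overlap. D43623_at was lower in IPC than in IPC_TRI by 0.52 ± 0.13 (adjusted p = 0.0042, limma) and lower in APC than in APC_TRI by 0.41 ± 0.13 (adjusted p = 0.025, limma). D43623_g_at had 0.01 ± 0.13 and -0.12 ± 0.13 in the same comparisons, neither of which passed. With each array centred on its median both D43623_at calls ended, at -0.19 and -0.26, and the second also ended without APC 1, APC 4, APC_TRI 1 or APC_TRI 2 (-0.39 to -0.38).

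Cpt2 encodes carnitine palmitoyltransferase 2, the inner membrane partner (J05470_at, chr5:127893450-127911347). Its CTL signals were 3711, 4145, 4607, 3659 and 4176. In ISCH they were 4134, 2560, 1521, 2464 and 1743. ISCH 1 lay among the controls and the other 4 lay below all of them. Cpt2 fell in ISCH by 0.76 on the log2 scale (SE 0.19, adjusted p = 0.01, limma), and by 0.97 without ISCH 1 and IPC_TRI 5. Without ISCH 3 the difference was -0.61 and did not pass (adjusted p = 0.051, limma). It was not called in any other comparison, with -0.41 in IPC, -0.28 in APC, -0.11 in IPC_TRI and -0.12 in APC_TRI, all against CTL.

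Acadm, the medium-chain acyl-CoA dehydrogenase, had the smallest adjusted p of the 10 genes against CTL (J02791_at, chr2:245518693-245542864). The CTL arrays had signals of 10677, 7479, 7515, 8893 and 8244. ISCH arrays had 3868, 6248, 5131, 6264 and 4540, all below the lowest control. IPC_TRI arrays had 4371, 4116, 4728, 4141 and 1308, and APC_TRI arrays 5524, 3978, 5335, 4488 and 4524. Both trigger groups thus lay wholly below CTL, and IPC_TRI 5 lay far below the other 4 of its group. The IPC arrays, at 7608, 6574, 8528, 6449 and 5362, and the APC arrays, at 6213, 5664, 6988, 7379 and 6785, had means of 6904 and 6606, against 8562 in CTL.

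Acadm fell by 1.36 on the log2 scale in IPC_TRI (SE 0.22, adjusted p = 0.00014, limma), a 2.57-fold difference. Without IPC_TRI 5 and ISCH 1 the fall was 1.03 and still passed. It fell by 0.89 in APC_TRI (SE 0.22, adjusted p = 0.011, limma) and by 0.82 in ISCH (SE 0.22, adjusted p = 0.015, limma). The ISCH call ended without CTL 1, at -0.72 (adjusted p = 0.053, limma). In IPC and APC the differences from CTL were -0.39 ± 0.22 and -0.45 ± 0.22, neither of which passed. Acadm was 1.95-fold higher in IPC than in IPC_TRI (0.97 ± 0.22, adjusted p = 0.0021, limma). With any 1 array of these groups left out the rise was 0.64 to 1.08 and still passed. Acadm had 0.43 ± 0.22 in APC minus APC_TRI (adjusted p = 0.17, limma).

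Acadvl, the very long-chain dehydrogenase of the inner membrane, takes the first step on long chains (D30647_at, chr10:55231558-55236786). Its CTL signals were 3550, 3281, 3061, 3177 and 2836. In IPC_TRI they were 1437, 1916, 2066, 2109 and 2020, and in APC_TRI 2146, 1916, 1760, 1361 and 1344. No trigger array reached the lowest control. Acadvl fell by 0.67 in IPC_TRI (SE 0.17, adjusted p = 0.0084, limma) and by 0.88 in APC_TRI (SE 0.17, adjusted p = 0.0013, limma), and neither call ended when any 1 array was left out.

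The ISCH arrays, with Acadvl signals of 2217, 2532, 1855, 2516 and 2146, also lay below all controls. The difference there, -0.46 ± 0.17, did not pass (adjusted p = 0.087, limma). APC arrays had 2139, 2879, 4352, 3500 and 3380, and 4 of the 5 lay above every APC_TRI array. The lowest of the APC arrays lay just below the highest of APC_TRI on the deposited scale, and after normalization the groups did not overlap. Acadvl rose in APC over APC_TRI by 0.86 ± 0.17 (adjusted p = 0.00053, limma) and in IPC over IPC_TRI by 0.46 ± 0.17 (adjusted p = 0.048, limma). The IPC call ended without IPC 1, 2, 3 or 4 or IPC_TRI 1, 2 or 3 (0.36 to 0.50) and in 6 of 13 other ways of processing, among them the replicate block (0.46, adjusted p = 0.051, limma).

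Acadl, the long-chain dehydrogenase, was read from J05029_s_at (chr9:75783689-75822077). Its CTL signals were 8531, 10932, 9908, 11344 and 9647. IPC_TRI arrays had 8506, 8640, 9691, 2229 and 6562, of which IPC_TRI 4 was the lowest of all 30 arrays. After normalization the IPC_TRI and CTL arrays did not overlap, though 2 IPC_TRI arrays lay above the lowest control as deposited. The ISCH arrays ran from 5464 to 11474 and crossed the whole CTL range. Acadl fell in IPC_TRI against CTL by 0.76 (SE 0.24, adjusted p = 0.027, limma) and rose in IPC over IPC_TRI by 0.71 ± 0.24 (adjusted p = 0.028, limma). Without IPC_TRI 4 these were -0.39 and 0.33 and did not pass. The first call also ended without CTL 2 or CTL 4 (-0.74 and -0.68), and the second without IPC 1 or IPC 3 (0.67 each). The F test over the 6 groups was not passed (adjusted p = 0.079, limma).

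Acadsb, a dehydrogenase of short branched chains that serves isoleucine breakdown, had a low signal (U64451_at, chr1:195619088-195660564). CTL arrays had 514, 404, 455, 569 and 465. IPC_TRI arrays had 298, 27, 330, 263 and 34, and APC_TRI arrays 374, 214, 394, 31 and 204. Both trigger groups lay below the controls, and 3 of their 10 arrays stood at 27 to 34, far below the others. Acadsb fell in IPC_TRI by 1.92 (SE 0.53, adjusted p = 0.014, limma). The call ended without IPC_TRI 2 (-1.49) or IPC_TRI 5 (-1.44), and without both ISCH 1 and IPC_TRI 5 (-1.44, adjusted p = 0.06, limma). In APC_TRI it had -1.27 ± 0.53 (adjusted p = 0.13, limma). Acadsb rose in IPC over IPC_TRI by 2.02 ± 0.53 (adjusted p = 0.007, limma), against a group with arrays at 27 and 34. The rise was 1.36 to 2.35 in 13 other ways of processing and did not pass in 3 of them.

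**Figure D2:**
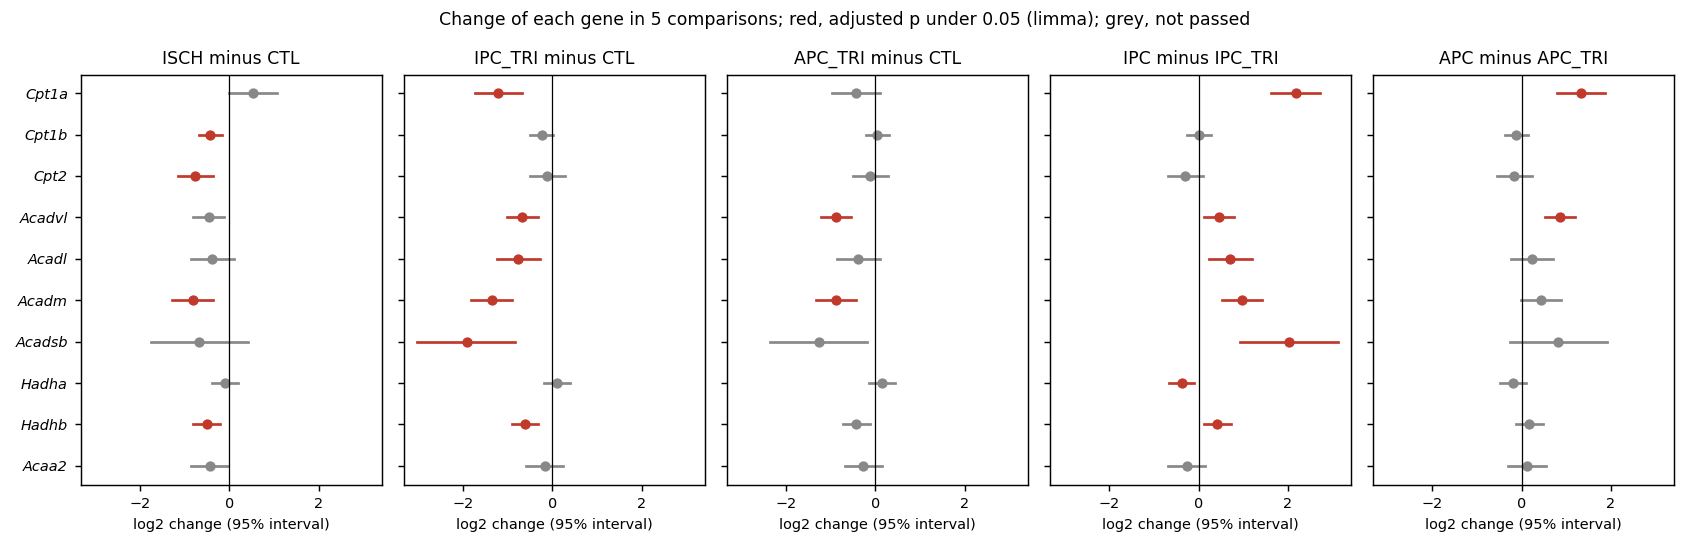
Log2 change of each of the 10 genes with its 95% interval in 5 comparisons, n = 5 arrays per group; red marks an adjusted p under 0.05. In IPC_TRI minus CTL 6 genes lie below 0 in red, from Acadsb at -1.92 to Hadhb at -0.61, and Hadha lies at 0.11.

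Hadha and Hadhb encode the alpha and beta subunits of the mitochondrial trifunctional protein, which carries the last 3 steps of the cycle for long chains. They lie next to each other, Hadha at chr6:31907801-31947434 and Hadhb at chr6:31873404-31907557. Hadhb (D16479_at) had CTL signals of 5352, 8402, 9030, 6666 and 6535. It had 5628, 5623, 4016, 4831 and 5359 in ISCH, 4711, 4707, 5620, 4154 and 3626 in IPC_TRI, and 6007, 5458, 5063, 5320 and 4402 in APC_TRI. On the deposited scale CTL 1 lay within the range of these 3 groups, and the other 4 controls lay above all their arrays. After normalization the CTL and IPC_TRI arrays did not overlap. Hadhb fell by 0.61 in IPC_TRI (SE 0.15, adjusted p = 0.0057, limma) and by 0.50 in ISCH (SE 0.15, adjusted p = 0.026, limma). In APC_TRI it had -0.43 ± 0.15, which did not pass (adjusted p = 0.061, limma). The ISCH call ended without CTL 2, CTL 3, ISCH 3 or ISCH 4 (-0.48 to -0.41).

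The 3 Hadha probe sets did not move alike. D16478_at, the brightest, had CTL signals of 5452, 7053, 7469, 7156 and 6835 and IPC_TRI signals of 7268, 7946, 8513, 5922 and 8248, which overlapped. D16478_g_at, from the same record, had 5783, 6214, 6603, 6202 and 6427 in CTL and 7168, 9555, 8470, 6255 and 8092 in IPC_TRI, where 4 of 5 lay above all controls. X98225_s_at, from another record, had 5706, 4048, 3532, 4611 and 4020 in CTL and 3261, 1328, 3204, 3094 and 2144 in IPC_TRI, all of which lay below the lowest control as deposited but not after normalization. The changes in IPC_TRI were 0.11 ± 0.14 and 0.29 ± 0.13 for the first 2, neither of which passed (adjusted p = 0.62 and 0.13, limma). The third fell by 0.74 on the log2 scale (SE 0.23, adjusted p = 0.027, limma).

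The same split was seen in IPC minus IPC_TRI. D16478_at had -0.38 ± 0.14 (adjusted p = 0.045, limma), D16478_g_at -0.56 ± 0.13 (adjusted p = 0.0033, limma), and X98225_s_at 0.40 ± 0.23 (adjusted p = 0.21, limma). Hadha, as read from D16478_at, fell where 6 of the other genes rose. That call ended without IPC 1, 2, 4 or 5 or IPC_TRI 1, 2, 3 or 5 (-0.41 to -0.28) and in 10 of 13 other ways of processing, among them the replicate block (adjusted p = 0.053, limma) and median centring (-0.12). Hadhb rose in the same comparison by 0.42 ± 0.15 (adjusted p = 0.035, limma), a call that ended without IPC 2 or 4 or IPC_TRI 2, 4 or 5 (0.36 to 0.42) and in 4 of 13 other ways of processing. The call of D16478_g_at ended with median centring (-0.27) and with the beta-actin ratio as a covariate (-0.44). The X98225_s_at call in IPC_TRI minus CTL ended without CTL 1, CTL 4, IPC_TRI 2 or IPC_TRI 5 (-0.72 to -0.51).

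Hadhb was set against each Hadha probe set within an array, so that a scaling factor common to both cancels. This ratio was chosen after both genes' values were seen, so it is a description with no test. Hadhb over D16478_at was lower than in CTL by 0.72 on the log2 scale in IPC_TRI and by 0.58 in APC_TRI. In both, all 5 arrays lay below all 5 CTL arrays. For single genes the shares without overlap with CTL were 9.06% and 12.6%, and none was computed for ratios of other genes. In ISCH the ratio was lower by 0.41, with overlap. The differences in IPC and APC were 0.09 and -0.21, and both groups overlapped CTL.

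Over D16478_g_at the Hadhb ratio was lower by 0.90 in IPC_TRI and 0.69 in APC_TRI, again with no overlap. Over X98225_s_at it differed from CTL by 0.13 and 0.02, all groups overlapped, and the ratio in the CTL arrays alone spread from -0.13 to 1.38. Which part of the transcript each probe set reads is not given in the sources used here.

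**Figure D3:**
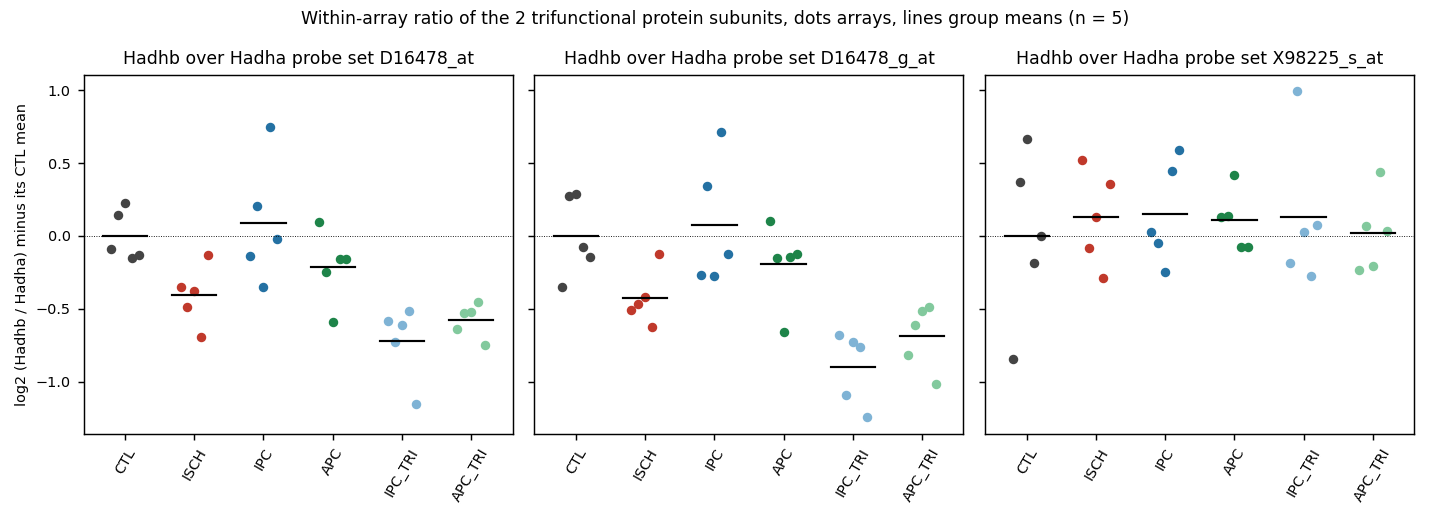
Log2 ratio of Hadhb to each of 3 Hadha probe sets within an array, less the CTL mean of that ratio; dots are arrays and lines means of 5. With D16478_at and D16478_g_at every IPC_TRI and APC_TRI array lies below every CTL array, and with X98225_s_at all groups overlap CTL.

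Acaa2, which encodes a mitochondrial thiolase, was called in no comparison (X05341_at, chr18:70620310-70648417). Its CTL signals were 10988, 6990, 11863, 10270 and 10853, with CTL 2 well below the other 4. ISCH arrays had 5910, 10674, 7028, 9298 and 8058 and IPC_TRI arrays 5858, 13600, 13084, 9178 and 9107, and both groups overlapped CTL. The difference from CTL was -0.43 ± 0.20 in ISCH (adjusted p = 0.21, limma) and -0.17 ± 0.20 in IPC_TRI (adjusted p = 0.58, limma).

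As a group, 4 of the 10 genes fell in ISCH minus CTL and 0 rose, where 8.3% of all genes were called, 3.39% higher and 4.91% lower. The median of the 10 was -0.45, against -0.01 over all genes, and 9 of 10 lay below 0. Arrays of both groups did not overlap for 3 of the 10, Acadm, Acadvl and Acadsb, against 9.7% of all genes. The 4 that fell were Cpt1b, Cpt2, Acadm and Hadhb, that is, both transferases of the cardiac carnitine shuttle, 1 dehydrogenase and 1 trifunctional subunit. With median centring 1 of 10 genes was called, Cpt2, since Acadm (-0.82), Hadhb (-0.58) and Cpt1b (-0.42) no longer passed. It was also 1 of 10 without ISCH 3.

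In IPC_TRI minus CTL 6 of 10 fell and 0 rose, where 15.7% of all genes were called, 6.94% higher and 8.75% lower. These were Cpt1a, Acadm, Acadl, Acadvl, Acadsb and Hadhb, so all 4 acyl-CoA dehydrogenases were among them. The median was -0.64, against -0.02 over all genes, and for 6 of 10 the arrays did not overlap, against 9.06% of all genes. In APC_TRI minus CTL 2 of 10 fell, Acadm and Acadvl, where 7.89% of all genes were called, 3.61% higher and 4.28% lower. The median there was -0.41, against 0.01, and 4 of 10 did not overlap, against 12.6%. The comparisons with CTL share the 5 CTL arrays, so a shift of those arrays would appear in each.

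The trigger groups were also compared directly. In IPC_TRI minus APC_TRI 0 of 10 genes were called (limma), where 0.349% of all genes were, and 3 of 10, Cpt1a, Cpt1b and Acadm, had an unadjusted p under 0.05, as did 14.5% of all genes. For 0 of 10 were the arrays free of overlap, against 1.62% of all genes. Cpt1a had -0.77 ± 0.26 (adjusted p = 0.15, limma). The larger count of falls in IPC_TRI than in APC_TRI was thus not shown to be a difference between the triggers.

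Against ISCH, 0 of 10 genes were called in IPC (limma), where 0.0951% of all genes were, and 1 of 10, Hadhb at 0.31 ± 0.15, had an unadjusted p under 0.05, the same share as the 10% of all genes. In APC 0 of 10 were called (limma), where 0.127% of all genes were, and 3 of 10 had an unadjusted p under 0.05, as did 12% of all genes. These 3 were Cpt1b (0.34 ± 0.13), Cpt2 (0.47 ± 0.19) and Acadvl (0.44 ± 0.17), with adjusted p of 0.26, 0.31 and 0.27 (limma). For 0 of 10 genes in either comparison were the arrays free of overlap, against 2.66% and 3.61% of all genes. The medians were 0.32 in both, against 0.02 and 0.03 over all genes, with 8 of 10 genes above 0 in IPC and 10 of 10 in APC. Without ISCH 1 and IPC_TRI 5, Cpt2 passed in APC minus ISCH at 0.69 (adjusted p = 0.032, limma). IPC and APC were not shown to differ from each other in any of the 10 genes: 0 were called (limma), as were 0% of all genes, 0 had an unadjusted p under 0.05 (2.57% of all genes did), and the differences ran from -0.30 to 0.54.

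Against the trigger groups, 6 of 10 genes rose and 1, Hadha, fell in IPC minus IPC_TRI, where 22.9% of all genes were called, 12.2% higher and 10.6% lower. The 6 that rose were the same that fell in IPC_TRI minus CTL, and both comparisons use the same IPC_TRI arrays. A shift of those arrays would appear in each. Of the 6, only Cpt1a was called in IPC minus CTL. In APC minus APC_TRI 2 of 10 rose, Cpt1a and Acadvl, where 17.2% of all genes were called, 8.91% higher and 8.34% lower, so that count lies near the background. The medians were 0.44 and 0.20, against 0.01 and -0.01. Arrays did not overlap for 3 of 10 in the first, against 11.4% of all genes, and for 2 of 10 in the second, against 16.4%. With the beta-actin ratio as a covariate, or with only the 2 groups in the fit, 1 of 10 genes passed in IPC minus IPC_TRI.

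Quality measures moved along with these groups, though in 20 exact tests none had an adjusted p under 0.05. The log2 ratio of beta-actin 3′ to 5′ probe signal was 0.0816 ± 0.245 (SD) in CTL, -0.456 ± 0.373 in IPC_TRI and -0.357 ± 0.279 in APC_TRI (exact p = 0.016 and 0.04, adjusted p = 0.053 and 0.1 over 20 tests). The GAPDH 3′ to 5′ ratio differed the other way, at -0.0612 ± 0.105 in CTL, 0.134 ± 0.0986 in IPC_TRI and 0.192 ± 0.143 in APC_TRI (exact p = 0.0079 each, the smallest that 5 against 5 allows, adjusted p = 0.053). In ISCH the beta-actin ratio was 0.319 ± 0.063 (exact p = 0.048, adjusted p = 0.11), above that of CTL. It was 0.339 ± 0.256 in IPC (exact p = 0.16, adjusted p = 0.32) and 0.0403 ± 0.268 in APC. The bacterial spike signal averaged 12 ± 0.611 in ISCH and 10.8 ± 0.687 in CTL on the log2 scale (exact p = 0.016, adjusted p = 0.053). Of each array's summed signal, the brightest 1% of probe sets gave 37.1% in ISCH, 37.2% in IPC_TRI, 34.6% in APC_TRI and 30.2% in CTL. With the beta-actin ratio as a covariate Acadm (-0.61) was no longer called in APC_TRI, nor Acadl (-0.73) and Acadsb (-1.69) in IPC_TRI, and in ISCH Cpt1b (-0.37) and Hadhb (-0.47) were not. Nor were Cpt1a in IPC minus CTL (0.91) or Acadm in IPC minus IPC_TRI (0.47). With the spike signal as a covariate Acadm (-0.55) and Cpt1b (-0.38) were no longer called in ISCH.

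Markers of other cell types were read beside the ISCH result. Of all genes 3.39% rose and 4.91% fell in ISCH, 6.94% and 8.75% in IPC_TRI, and 3.61% and 4.28% in APC_TRI. Of 13 fibroblast and matrix genes tested 7 rose in ISCH and 0 fell, with a median of 0.65. The summed signal of the 14 on the array ran from 84100 to 110000 in ISCH and from 54000 to 62300 in CTL. Of 5 endothelial genes tested 1 rose in ISCH, Thbd (0.66 ± 0.16), and the list's mean per array, less its CTL mean, was 0.14 to 0.73 in ISCH and -0.26 to 0.23 in CTL. Of 3 adipocyte genes tested 1 rose in ISCH, Fabp4, which is also on the list of fatty acid uptake below. The adipocyte list's mean was 0.77 to 1.04 in ISCH, 0.28 to 0.96 in IPC and 0.65 to 0.81 in APC. It was -0.24 to 0.14 in CTL. The median change of the 3 genes was smaller, at 0.42 in ISCH, 0.15 in IPC and 0.22 in APC. Of 13 ventricular cardiomyocyte markers 4 fell in ISCH, with a median of -0.23, but the median was 0.21 on the deposited scale and 0.11 with median centring. Their summed signal ran from 328000 to 571000 in ISCH and from 252000 to 406000 in CTL. In IPC_TRI 3 of these 13 markers fell, with a median of -0.13, which was 0.35 and 0.14 under those scalings. The median of the 10 oxidation genes in ISCH lay between -0.50 and -0.40 under all 13 other ways of processing. Of the fibroblast list 1 gene rose in IPC_TRI and in APC_TRI, with medians of -0.08 and -0.22. The list's summed deposited signal ran from 69000 to 103000 in IPC_TRI and from 69800 to 82700 in APC_TRI. Both ranges lay above that of CTL, but this was not particular to the fibroblast list. The summed signal of the ventricular cardiomyocyte markers had medians of 422000 in IPC_TRI, 383000 in APC_TRI and 279000 in CTL. For smooth muscle and pericyte markers these were 18400, 21900 and 14400, and for endothelial markers 2220, 1960 and 2290. The part of other cells in these results was not tested.

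**Figure D4:**
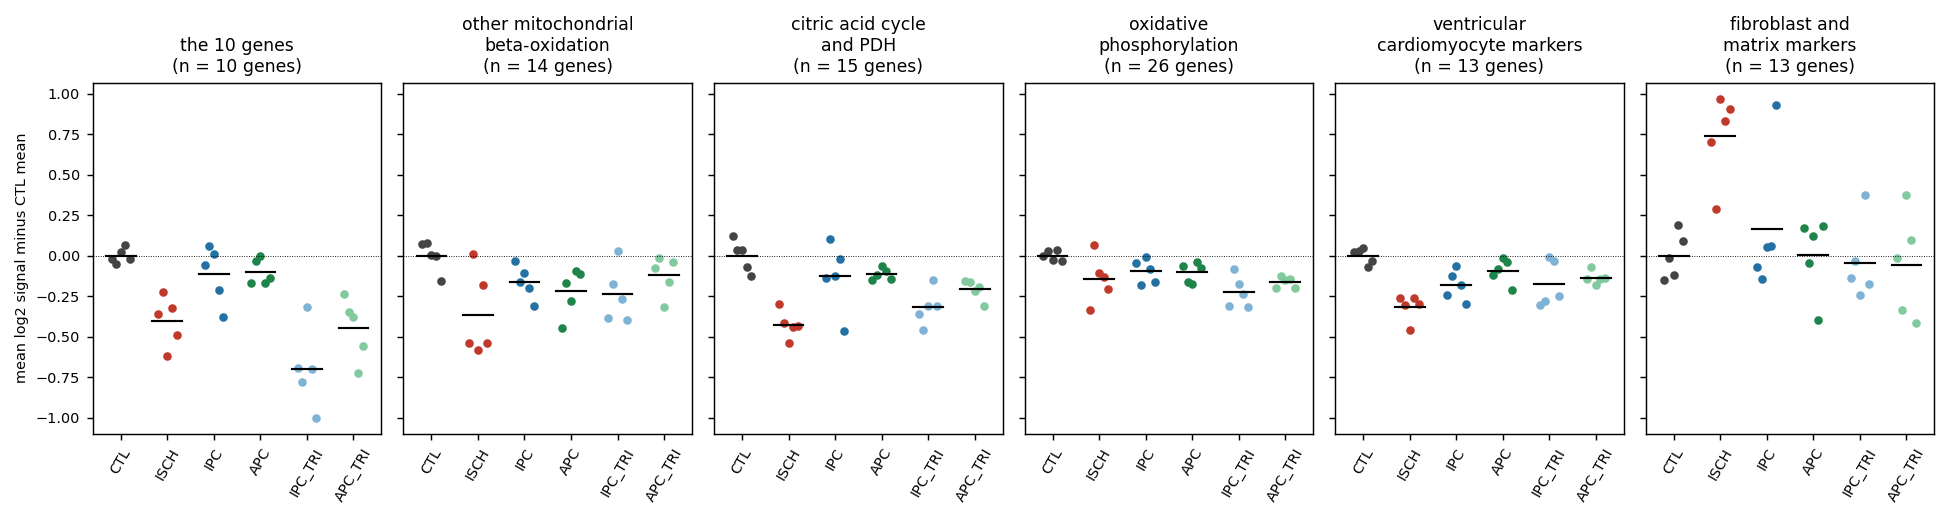
Mean log2 signal, less its CTL mean, of the 10 genes and of 5 lists of other genes, quantile normalized; dots are arrays and lines means of 5. The 10 genes have means of -0.40 in ISCH, -0.70 in IPC_TRI and -0.45 in APC_TRI, and the fibroblast and matrix list is at 0.74 in ISCH.

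Other enzymes of the pathway were taken from whole pathway lists. Against CTL, 8.3% of all genes were called in ISCH, 15.7% in IPC_TRI and 7.89% in APC_TRI. An unadjusted p under 0.05 was held by 20.4%, 31.2% and 24.4% of all genes. These are the shares to set beside the counts of this and the following lists. Of 22 further genes of mitochondrial beta-oxidation 14 were tested. In ISCH 0 of the 14 were called (limma) and 3 had an unadjusted p under 0.05, near the share of all genes. The median was -0.22. Etfa, the electron acceptor of the dehydrogenases, had the smallest p (-0.31 ± 0.11, adjusted p = 0.087, limma). In IPC_TRI 2 rose and 1 fell. The hydratases Auh (0.46 ± 0.14) and Echs1 (0.53 ± 0.18) rose and the dehydrogenase Hsd17b10 fell (-0.45 ± 0.15), with a median of -0.28 over the 14. On the deposited scale and with median centring 0 rose and 4 fell there. In APC_TRI 0 of 14 were called (limma) and 1 had an unadjusted p under 0.05, with a median of -0.15.

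Fatty acid uptake and activation gave 11 tested genes of 13. Dbi, which carries acyl-CoA in the cytosol, fell in IPC_TRI by 1.53 (SE 0.21, adjusted p = 2.4e-05, limma) and in APC_TRI by 1.10 (SE 0.21, adjusted p = 0.0013, limma). Cd36, the main fatty acid transporter of heart muscle, fell in IPC_TRI by 1.18 (SE 0.27, adjusted p = 0.0036, limma). In all, 2 fell and 0 rose in IPC_TRI (2 fell and 1 rose as deposited), and 4 fell and 1 rose in APC_TRI (2 fell and 1 rose under both other scalings). Among the 4 were Lpl, the lipase that frees fatty acids from lipoproteins (-0.59 ± 0.12), and the binding protein Fabp4 (-2.04 ± 0.34). In ISCH 1 of 11 rose and 0 fell, and the median was -0.16.

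Genes around PPAR alpha, the nuclear receptor that drives fatty acid oxidation genes, gave 12 tested of 20. In ISCH 0 of the 12 were called (limma), 1 had an unadjusted p under 0.05, and the median was -0.02. Pdk4, a kinase that shuts pyruvate dehydrogenase, had -0.94 ± 0.35 (adjusted p = 0.095, limma). In IPC_TRI 3 rose and 1 fell, with a median of -0.24 (2 rose and 2 fell with median centring). The uncoupling protein gene Ucp2 rose by 0.90 ± 0.19 and the lipid droplet gene Plin2 by 0.92 ± 0.21, while the receptor partner Rxrg fell by 0.68 on the log2 scale. In APC_TRI 1 of 12 rose, Ucp2 by 0.60 ± 0.19, and 0 with median centring. Peroxisomal oxidation, with 7 tested of 16, had 0 called in ISCH or IPC_TRI (limma), with 0 and 3 at an unadjusted p under 0.05. In APC_TRI 1 rose, the transporter gene Abcd3 (0.87 ± 0.22), and 0 fell (2 fell as deposited).

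Downstream, the list of pyruvate dehydrogenase and citric acid cycle genes had 15 tested, of which 5 fell and 0 rose in ISCH, with a median of -0.39 (2 fell as deposited). Cs, citrate synthase, fell by 0.61 (SE 0.17), and the aspartate aminotransferases Got1 and Got2 by 0.55 and 0.52. In IPC_TRI 5 fell and 0 rose (4 and 2 as deposited), among them the pyruvate dehydrogenase subunit gene Pdhb (-1.34 ± 0.14, adjusted p = 7.4e-07, limma) and the isocitrate dehydrogenase subunit gene Idh3g (-1.17 ± 0.26). In APC_TRI 3 fell and 2 rose (2 and 2 as deposited), with Pdhb lower by 0.98 ± 0.14. Of 26 genes of oxidative phosphorylation 2 fell in ISCH, Ndufs1 (-0.83 ± 0.22) of complex I and Uqcrfs1 (-0.35 ± 0.11) of complex III, and the median was -0.14 (0.01 as deposited). In IPC_TRI 6 fell and 3 rose (4 and 4 as deposited), and in APC_TRI 4 fell and 3 rose (3 and 3 as deposited). Of 2 genes of ketone body use Bdh1 fell in ISCH (-0.94 ± 0.25) and in APC_TRI (-0.86 ± 0.25).

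The 10 genes varied together only in part across the 30 arrays, where arrays of a group share their protocol. Over 45 pairs of genes Pearson's r ran from -0.59 to 0.73 with a median of 0.25, and 33 pairs lay above 0. With group means taken out the range was -0.43 to 0.61, the median 0.11, and 30 pairs lay above 0. Acadm had the highest median correlation with the other 9, 0.48, and Hadha the lowest, 0.01. The genes whose profile was most like the mean standardised profile of the 10, among 3145 others, were Got2 (r = 0.83), Pfkm (0.83), Nnt (0.79), Alas1 (0.78) and Ndufs1 (0.74). The least alike were Dab2 (-0.81), Gas7 (-0.79) and Crispld2 (-0.77). With group means taken out these values were 0.64, 0.67, 0.57, 0.38 and 0.39, and -0.50, -0.41 and -0.47.

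The spread between arrays differed by group. The median SD of the 10 genes on the log2 scale was 0.17 in CTL, 0.29 in ISCH, 0.26 in IPC, 0.18 in APC, 0.33 in IPC_TRI and 0.23 in APC_TRI. In IPC_TRI the single genes ran from 0.16 to 1.71, and over all genes the median there was 0.50. The fit uses 1 spread per probe set for all groups. With only the 2 groups of a comparison in the fit, 3 of 10 genes were called in IPC_TRI minus CTL in place of 6, and Cpt1a (adjusted p = 0.052, limma), Acadl (0.17) and Acadsb (0.091) no longer passed there.

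**Figure D5:**
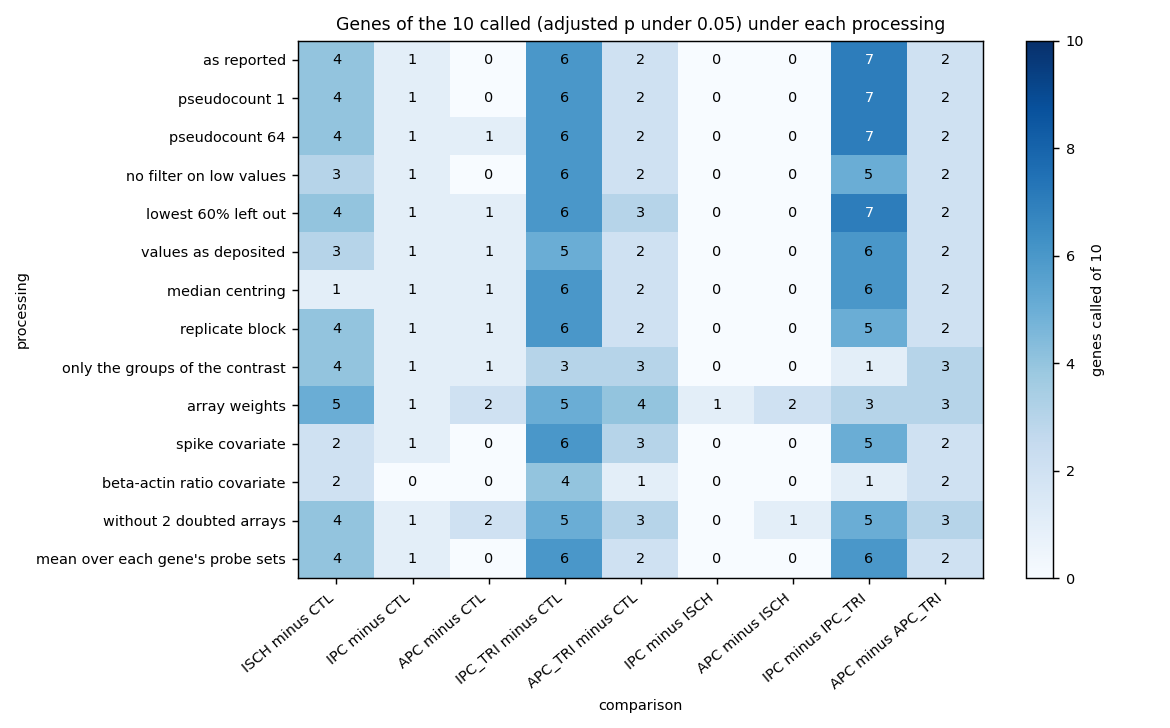
Number of the 10 genes called at an adjusted p under 0.05 in 9 comparisons, by column, under each way of processing, by row, as digits on a colour scale. IPC_TRI minus CTL ranges from 3 to 6 and IPC minus IPC_TRI from 1 to 7.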

How the data were processed

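Each sample is 1 array, and the deposited table holds 1 intensity per probe set, made by the authors with software not given in the sources used here. Per the labels' protocols standard Affymetrix procedures were used. The deposited intensities had been scaled so that each array's trimmed mean was 500.8 to 501, while array medians ran from 114.6 to 189.2, so the upper part of each array weighs on its scale.

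From these values log2(intensity + 16) was computed and quantile normalized. Probe sets in the lowest 40% by mean were dropped, leaving 5244 probe sets and 3155 named genes. limma 3.58.1 in R 4.3.3 fitted all 6 groups together with lmFit and eBayes (trend), and p-values were adjusted by Benjamini-Hochberg within each comparison and called under 0.05. A gene was read from its probe set with the highest mean. Quality measures were compared with 2-sided exact permutation tests. The fit was tested on simulated data. Probe sets were named through the platform's probe-to-gene table, and places and sequences come from RefSeq on GRCr8.

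All 10 members are named, from each pathway list up to 3 genes with the smallest p in a comparison, and the 5 other genes most and 3 least like the members' mean standardised profile. The members and lists were chosen with earlier results of these data known. Alternatives were the pseudocount, the filter, the scaling, the fit's samples, array weights, quality covariates, a replicate block, probe set means, each array left out in turn, and ISCH 1 and IPC_TRI 5 left out together. The Hadhb to Hadha ratio was added after the data were seen. Deviations from the group means correlated weakly between arrays of the same number in different groups (r from -0.138 to 0.207). In IPC and IPC_TRI all 5 pairs lay above 0, at 0.035 to 0.159. Arrays of unlike number were not compared, so pairing was neither shown nor excluded. The highest correlation between 2 arrays was 0.977 and no 2 arrays held identical values. p-values measure the spread between arrays.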

Additional observations from a re-analysis of the deposited data

Results flagged for a closer look

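In 10 of 78 sets of 5 arrays (13 probe sets in 6 groups) 1 array stood far from the other 4, on the normalized log2 scale on which all values here are given. The gap from it to the nearest array is a share of the whole range, and shares above 0.71 are listed, which chance alone gives in about 1 set of 20. The share over all probe sets was not computed, so an excess in these genes was not shown. Of the 10, 4 lay in IPC_TRI, where the median SD over all genes was 0.50, against 0.25 in CTL. Acadm on IPC_TRI 5 was 10.46 against 12.00 to 12.23 on the others (share 0.874), and Cpt2 on the same array was high, at 12.31 against 11.65 to 11.83 (0.732). Acadl on IPC_TRI 4 was 11.14 against 12.89 to 13.12 (0.883), and Acadvl on IPC_TRI 1 was 10.57 against 10.97 to 11.14 (0.714).

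Among controls, Acaa2 on CTL 2 was 12.81 against 13.50 to 13.57 (0.9), and Hadha probe set D16478_at on CTL 1 was 12.44 against 12.80 to 12.92 (0.75). In APC, Acadm on array 2 was 12.45 against 12.71 to 12.77 (0.803), though on the deposited scale, at 5663.8 against 6212.9 to 7378.7, it lay closer to the others. Hadha probe set X98225_s_at on APC 3 was 11.02 against 11.83 to 11.95 (0.864). Acaa2 on IPC 4 was 12.06 against 12.98 to 13.32 (0.731). Acadsb on APC_TRI 4 was 5.42 against 7.74 to 8.67 (0.714).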

How the results depend on the processing

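Alternatives were run for 42 differences of the members' probe sets, those called and those of a gene's main probe set with an unadjusted p under 0.05, and none of these 42 changed sign. Other differences in the text were not rerun. Counts of the 10 genes called moved by more than 1.5 times as follows. In APC minus CTL, 0 became 1 with a pseudocount of 64, with the lowest 60% left out, on the deposited scale, with median centring, with the replicate block and with only the compared groups fitted, and 2 with array weights or without ISCH 1 and IPC_TRI 5. In ISCH minus CTL, 4 became 1 with median centring and 2 with the spike signal or the beta-actin ratio as a covariate. In IPC minus CTL 1 became 0 with the beta-actin covariate. In IPC_TRI minus CTL 6 became 3 with only the compared groups. In APC_TRI minus CTL 2 became 4 with array weights and 1 with the beta-actin covariate. In IPC minus ISCH 0 became 1 with array weights. In APC minus ISCH 0 became 2 with array weights and 1 without ISCH 1 and IPC_TRI 5. In IPC minus IPC_TRI 7 became 1 with only the compared groups, 3 with array weights and 1 with the beta-actin covariate. The cause was not tested. Median centring also moved medians over the 10 genes to -0.86 in IPC_TRI minus CTL, 0.78 in IPC minus IPC_TRI and -0.40 in IPC_TRI minus APC_TRI, where the median of all genes shifted by -0.15, 0.16 and -0.13. The higher and lower calls among all genes were then 100 and 412 in IPC_TRI minus CTL in place of 219 and 276, 543 and 151 in IPC minus IPC_TRI in place of 386 and 335, and 74 and 171 in ISCH minus CTL in place of 107 and 155.

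With 1 array left out at a time the counts ran from 1 to 4 in ISCH minus CTL, 0 to 1 in IPC minus CTL and in APC minus CTL, 5 to 6 in IPC_TRI minus CTL, 2 to 3 in APC_TRI minus CTL and 4 to 6 in IPC minus IPC_TRI, and stayed at 0 against ISCH and at 2 in APC minus APC_TRI. The replicate block changed the calls of Acadvl (0.46) and Hadha (-0.38) in IPC minus IPC_TRI, of Cpt1b D43623_at in ISCH minus CTL (-0.40) and of Cpt1a in APC minus CTL (0.88), and no other call among the 42. The block goes by number only, and a pairing of the samples was neither shown nor excluded.

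Groups of 5 arrays, a spread in IPC_TRI wider than elsewhere, and quality measures that moved with ISCH and the trigger groups limit these results.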

Other observations

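Hadh, the short-chain 3-hydroxyacyl-CoA dehydrogenase and not one of the 10 genes, fell in APC minus CTL, with a log2 change of -1.90 ± 0.45 (SE, n = 5; adjusted p = 0.0082, limma). It was the 1 gene of 14 other beta-oxidation genes called there, where 3.26% of all genes were called. In IPC minus APC 0 of the 14 had an unadjusted p under 0.05. The fall of Hadh was thus not shown to be particular to APC. In APC minus APC_TRI Hadh fell as well, with a log2 change of -2.46 ± 0.45 (adjusted p = 0.00025, limma), where 17.2% of all genes were called.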
